A study of Mus musculus with 6 samples.

Results

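The Tshz2 and Npsr1 excitatory neurons described here were 1529 nuclei of the aged mouse hippocampal dissection, out of 28827 excitatory nuclei, 53294 nuclei that passed the filters and 53824 deposited barcodes. Members were chosen by their counts of unique molecular identifiers (UMIs, each standing for 1 captured transcript). A member held at least 500 UMIs with at most 5% of them from mitochondrial genes, at least 1 UMI of the vesicular glutamate transporter Slc17a7 and at least 2 UMIs of Tshz2. It also held at least 2 of the 4 markers Npsr1, Vwc2l, Cux2 and Pdzrn3, at most 1 UMI of Gad1 and Gad2 together, and fewer than 3 of C1qtnf7, Cobl, Pparg, Adamts2 and Necab1, which mark a neighbouring excitatory type. Excitatory nuclei in general met the Slc17a7 and Gad conditions only.

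Mice of the sevoflurane group inhaled that volatile anaesthetic at 2% with 60% oxygen over 6 h, at 1 L/min, and control mice inhaled 60% oxygen alone for as long and at the same flow. All were aged mice of 18 to 20 months, with no genetic change named in the labels. Nuclei were isolated from frozen hippocampi and profiled by droplet-based sequencing of transcript 3' ends, with 3 libraries in each group. The labels give the sex as male for the first 2 replicates of each group and as female for replicate 3. They give neither the strain nor the number of animals behind a library, so every p-value below measures the spread between libraries.

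The libraries held 8015 to 10083 barcodes and 56334621 to 72636984 UMIs each. Pairs of libraries shared 15 to 33 barcodes, and no barcode was a member in both libraries of a pair. The genes of the sex chromosomes did not match the labelled sex in 3 libraries: sevoflurane replicate 1, labelled male, had 1291 CPM of Xist (CPM, UMIs scaled to one fixed total per library) and no counts of 4 Y-linked genes, and replicate 3 of both groups, labelled female, had the male pattern. Sevoflurane replicate 1 was therefore the only library with the female pattern. Ttr, the transthyretin of the choroid plexus, stood apart between the groups in the members and in the other excitatory nuclei alike. In the members it was at 3.21, 5.64 and 1.40 CPM in the sevoflurane libraries and 117, 49.6 and 337 CPM in the oxygen libraries. The Scrublet doublet caller marked 141 members (9.22%), against 7.01% of all nuclei, and they were kept in the main comparisons.

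Tshz2 encodes a zinc finger transcription factor of the teashirt family that marks sets of excitatory neurons in the cortex and in the areas beside the hippocampus. Npsr1 is the receptor for neuropeptide S, a peptide made in a few brainstem neurons that promotes wakefulness, and it is known from the retrohippocampal and retrosplenial areas of rodents. Sevoflurane acts on ligand-gated and background ion channels: it strengthens currents through GABA-A receptors, opens potassium channels of the tandem pore family and weakens excitatory transmission.

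The markers that chose the members were spread unevenly over them. Vwc2l, which encodes a secreted inhibitor of bone morphogenetic proteins, was detected in 84.3% of the members, and the ubiquitin ligase gene Pdzrn3 in 92.0%. The upper-layer transcription factor Cux2 was detected in 68.7% and Npsr1 in 25.3%. For comparison, among 3290 oligodendrocyte-like nuclei chosen by myelin genes, which should lack these genes, the shares were 4.47% for Vwc2l, 5.50% for Pdzrn3, 12.9% for Cux2 and 0.578% for Npsr1. These nuclei were shallower, with a median of 2512.5 UMIs against 8834 in the members. Npsr1 was seen in 1.38% of the other excitatory nuclei, whose library medians ran from 6319 to 8071 UMIs. The median member held 20 UMIs of Tshz2.

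Of the members, 659 (43.1%) carried exactly 2 of the 4 markers, 664 (43.4%) carried 3 and 206 (13.5%) carried all 4. The nuclei at the thresholds can be given as values only. There were 50 members with exactly 2 Tshz2 UMIs, and 99 nuclei failed with 1 Tshz2 UMI alone. On the marker condition 659 members sat at the minimum and 1040 nuclei with 1 marker fell outside. Of the 659 members at the minimum, 65 lay in the main cluster led by Npsr1, described next, against 2 of the 1040 just outside.

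The label of excitatory neurons was set beside marker lists. The excitatory list holds Slc17a7 and the inhibitory list holds Gad1 and Gad2. The rule reads these genes, so the sums were partly fixed in advance. The summed level of the excitatory marker list was 1436, 1429 and 1467 CPM in the sevoflurane libraries and 1565, 1330 and 1429 CPM in the oxygen libraries, with no marker of the list at 0. In the other excitatory nuclei this list was higher, at 1712, 1885 and 1694 CPM under sevoflurane and 1775, 1661 and 1684 CPM under oxygen. The inhibitory list summed to 74.3, 137 and 190 CPM under sevoflurane and 188, 115 and 105 CPM under oxygen. It was also higher in the other excitatory nuclei, at 207, 271 and 236 CPM under sevoflurane and 284, 214 and 206 CPM under oxygen. Both lists overlapped between the groups. The parahippocampal place in the name cannot be read from dissociated nuclei and was not tested.

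**Figure D1:**
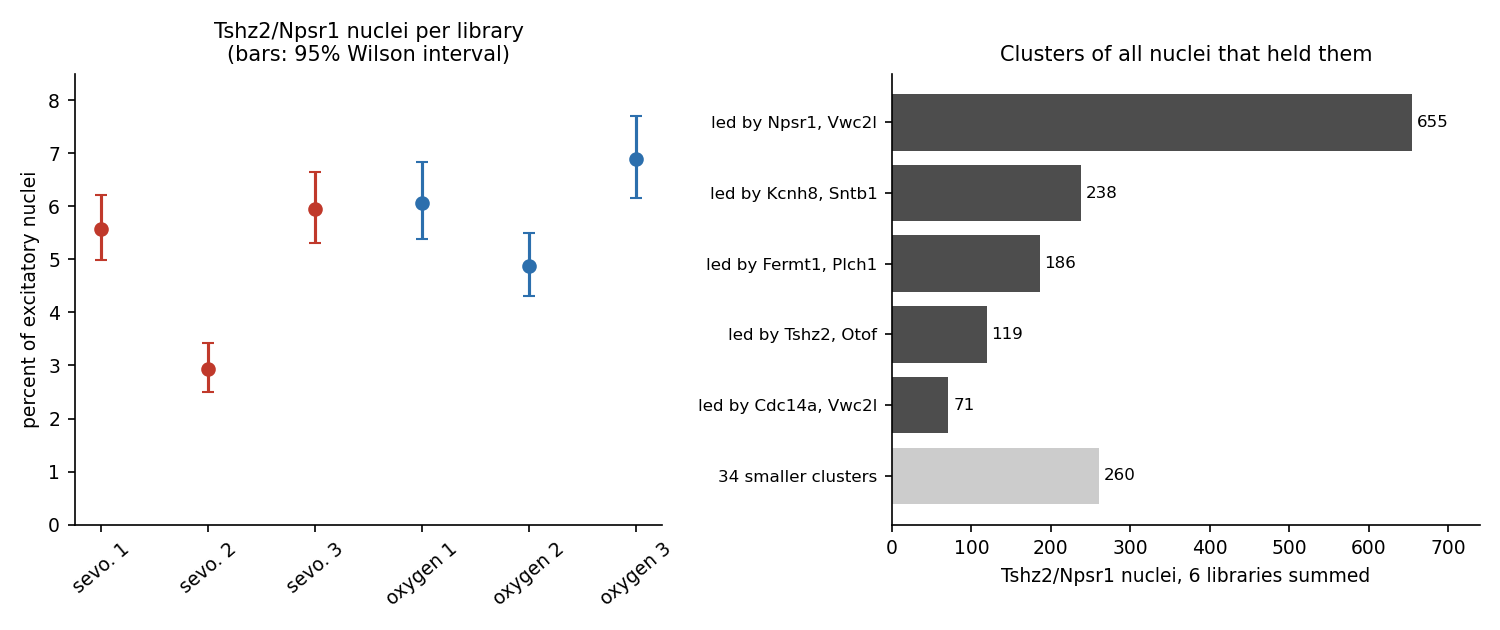
Left, members as a percentage of the excitatory nuclei of each library, sevoflurane libraries left of oxygen libraries, with 95% Wilson intervals. Right, how the 1529 members fell over the clusters of all nuclei, with 655 in the cluster led by Npsr1, 238, 186, 119 and 71 in the next 4, and 260 spread over 34 smaller ones.

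The rule gathered more than 1 kind of nucleus. When all nuclei of the series were clustered together, which gave 54 clusters, members were found in 39 of them, and 5 clusters with at least 60 members each held 1269 members (83.0%). The leading cluster, with Npsr1, Vwc2l, Pdzrn3, Tshz2, Gpc6, Sgcz and Cux2 among its leading genes, held 655 members, which is 42.8% of the members and 54.0% of the 1214 nuclei of that cluster. These 655 are called Npsr1-led nuclei below, and the other 874 the remaining nuclei. A small cluster of 119 nuclei, of which 41.2% were called doublets, also had Npsr1 as its first leading gene; its 40 members are among the remaining nuclei. The division was made after seeing the data, from the cluster that holds the most members and not from any difference between the treatments. Of the 559 nuclei of that cluster that were not members, 376 had no UMI of Slc17a7 and 198 held 3 or more markers of the neighbouring type.

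The largest of the other clusters differed from the Npsr1-led nuclei in deep-layer genes. It was led by Kcnh8, Sntb1 and Cntn6 and held 238 members. The layer 6 marker list summed there to 4717 CPM, against 205 CPM in the Npsr1-led nuclei and 1170 CPM in the other excitatory nuclei, and to 228, 238 and 87.3 CPM in the other 3 of the 5 clusters. Most of the sum in the Kcnh8-led cluster was the single gene Hs3st4, at 3627 CPM. Tle4 was at 596, Bcl11b at 399 and Foxp2 at 86.7 CPM, while Rprm and Syt6 were low at 6.39 and 2.00 CPM. The list of near-projecting neurons, a deep-layer cortical class that also carries Tshz2, summed to 874 CPM in that cluster and to 129 CPM in the Npsr1-led nuclei. Most of the 874 CPM was Htr2c, at 691 CPM. Lypd1, Fezf2 and Trhr were at 70.7, 58.3 and 51.1 CPM, Sla2 at 3.20 CPM and Slc17a8 at 0. A cluster led by Fermt1, Plch1 and Angpt1 held 186 members and almost no Npsr1, at 0.822 CPM, against 196 CPM in the Npsr1-led nuclei and 141 CPM in the Kcnh8-led cluster. The upper-layer list summed to 752 CPM in the Npsr1-led nuclei, 321 CPM in the Kcnh8-led cluster, 843 CPM in the Fermt1-led cluster and 301 CPM in the other excitatory nuclei. Cux2, a gene of the rule, made up 407, 8.79, 371 and 28.3 CPM of these sums in that order. The contrast between the Npsr1-led nuclei and the Kcnh8-led cluster thus came mostly from a gene that chose the members. These values describe clusters made from the same counts and were given no test. Sevoflurane replicate 2 gave only 6 nuclei to the Fermt1-led cluster and 2 to a smaller cluster led by Tshz2 and Otof.

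Beyond the genes of the rule, the members were led by Sgcz, a subunit of the sarcoglycan complex, at a mean of 3278 CPM against 449 CPM in the other excitatory nuclei. Chrm2, the M2 muscarinic acetylcholine receptor, was at 140 CPM against 15.5 CPM, and Gpc6, a cell surface heparan sulfate proteoglycan, at 1029 CPM against 144 CPM. The bone morphogenetic protein modulator Bmper (116 against 14.2 CPM), the transcription factors Tox (536 against 106 CPM) and Tshz3 (315 against 64.0 CPM) and the receptor phosphatase Ptprt (1096 against 221 CPM) were likewise higher in the members.

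Some of the leading genes came from one side of the division. The kainate receptor gene Grik1 averaged 22.8 CPM in the Npsr1-led nuclei and 294 CPM in the remaining nuclei, and the receptor tyrosine kinase gene Alk 3.18 and 102 CPM. The contactin gene Cntn6 was at 41.3 CPM in the Npsr1-led nuclei and 435 CPM in the remaining ones. The Npsr1-led nuclei shared Gpc6 (2196 CPM), Sgcz, Bmper and Chrm2 as leading genes with the members as a whole. Gpc6 was far lower in the remaining nuclei, at 418 CPM, near its 314 CPM in the C1qtnf7 and Cobl type and 327 CPM in nuclei with Foxp2 and Tle4. Tshz3 was at 201 CPM in the remaining nuclei and 217 CPM in nuclei with Foxp2 and Tle4. Sgcz stayed higher in the remaining nuclei, at 2234 CPM against 1583 CPM there. Some genes led the Npsr1-led nuclei but were not among the 20 leading genes of all members. The postsynaptic adhesion gene Lrrc4c was at 6741 CPM in the Npsr1-led nuclei against 1034 CPM in the other excitatory nuclei. Likewise named were the lipid flippase Atp10b (55.9 against 2.57 CPM), the active zone gene Rims3 (84.2 against 6.24 CPM) and Oprd1, the delta opioid receptor (70.03 against 7.97 CPM).

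**Figure D2:**
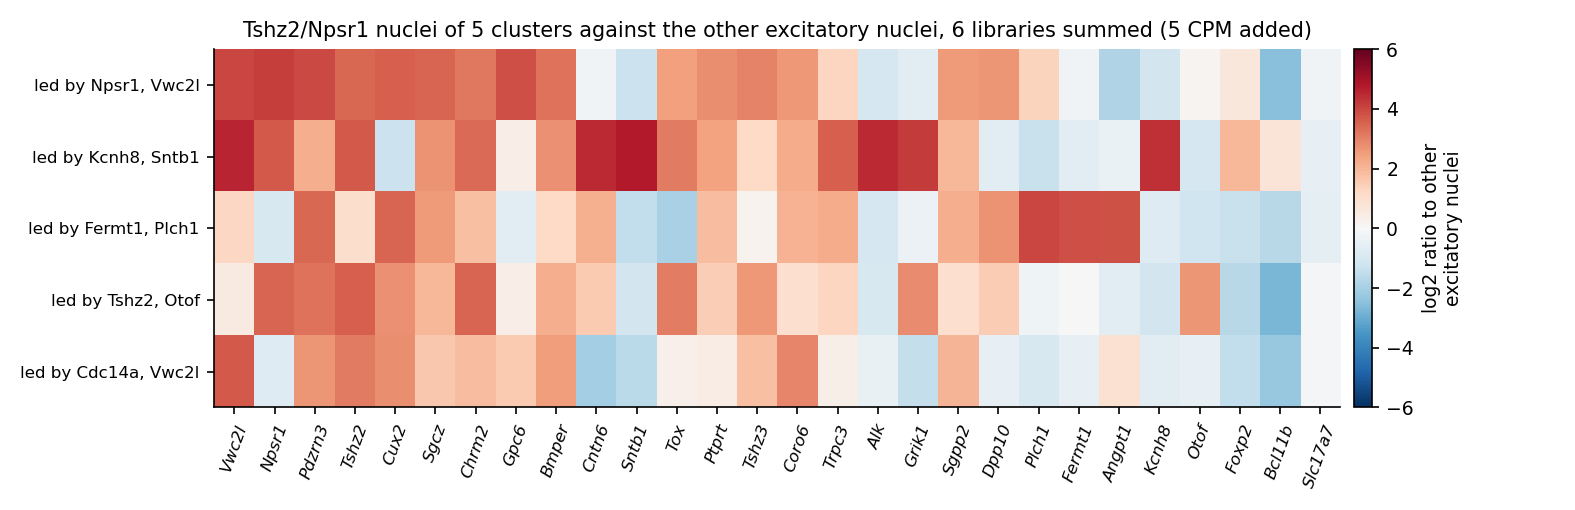
Log2 ratio of each gene's level in 5 clusters of members to its level in the other excitatory nuclei, with 5 CPM added to both sides. The Npsr1-led nuclei are high in Npsr1, Vwc2l and Gpc6, while Cntn6, Sntb1, Alk and Grik1 are high in the Kcnh8-led cluster.

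The members made up 5.56%, 2.93% and 5.94% of the excitatory nuclei in the sevoflurane libraries (95% Wilson intervals 4.99 to 6.20%, 2.499 to 3.43% and 5.31 to 6.64%) and 6.06%, 4.87% and 6.89% in the oxygen libraries (5.38 to 6.83%, 4.32 to 5.49% and 6.16 to 7.70%). The groups overlapped. The mean was 4.81% ± 1.64 under sevoflurane and 5.94% ± 1.01 under oxygen (SD, n = 3 each), a difference of -1.13 percentage points with an exact permutation p of 0.4 (two-sided); the smallest p that 3 against 3 libraries allow is 0.1. Without sevoflurane replicate 2 the difference was -0.188. The intervals cover counting error only, and the share depends on the dissection as well as on the nuclei. With every nucleus thinned to 2000 UMIs before the rule was applied, which left out 1225 to 1717 shallower nuclei per library, the shares were 3.30%, 1.59% and 4.06% under sevoflurane and 3.43%, 3.11% and 4.64% under oxygen.

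The median depth of a member was 8586, 8376 and 9013 UMIs under sevoflurane and 9340, 9318 and 8370 UMIs under oxygen. The ranges overlapped, and the mean difference of -351 UMIs had an exact permutation p of 0.4 (two-sided). Summed over members, the counts behind the comparisons were 2800722, 1419315 and 2857043 UMIs under sevoflurane and 2592058, 2561873 and 2702820 UMIs under oxygen. Sevoflurane replicate 2 was the thinnest library of this kind, with 148 members of which 66 were Npsr1-led.

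Several genes of the rule itself stood apart between the treatments. Since they chose the members, their levels are given as a description, and no test of them is read as a result. Npsr1 was at 106, 114 and 98.4 CPM in the members of the sevoflurane libraries and 192, 135 and 127 CPM in those of the oxygen libraries. In the Npsr1-led nuclei it was at 168, 157 and 125 CPM under sevoflurane and 276, 231 and 221 CPM under oxygen, and in the other excitatory nuclei, on a far lower level, at 5.49, 2.87 and 5.76 CPM under sevoflurane and 7.45, 9.63 and 6.36 CPM under oxygen. In each of these 3 sets all sevoflurane libraries lay below all oxygen libraries. In the remaining nuclei they overlapped, at 71.3, 92.1 and 82.0 CPM under sevoflurane and 150, 71.3 and 89.9 CPM under oxygen.

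Pdzrn3 was at 684, 643 and 629 CPM in the Npsr1-led nuclei under sevoflurane and 864, 958 and 954 CPM under oxygen. It did not overlap in the remaining nuclei either, at 333, 242 and 299 CPM under sevoflurane and 397, 339.9 and 407 CPM under oxygen, but overlapped in the other excitatory nuclei, at 40.4, 14.7 and 58.5 CPM under sevoflurane and 62.6, 40.003 and 64.6 CPM under oxygen. Cobl, an actin nucleator whose detection counts against membership, was at 159, 150 and 189 CPM in the members under sevoflurane and 257, 273 and 235 CPM under oxygen. It was also lower in the other excitatory nuclei, at 37.5, 28.004 and 47.2 CPM under sevoflurane and 75.5, 64.8 and 67.1 CPM under oxygen. Since the rule reads these genes, their levels bear on who is a member. When membership was taken from clusters instead of from the rule, 263 genes were called between the treatments, against 244 with the rule. Of the 244, 142 were called in both, 19 were not tested with the clusters and 222 had the same sign. Tshz2 itself overlapped between the groups, at 2416, 2361 and 2436 CPM under sevoflurane and 2413, 2499 and 2120 CPM under oxygen, as did Vwc2l and Cux2.

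Sevoflurane against oxygen was then compared over the summed counts of each library with the edgeR quasi-likelihood test, across all genes with enough counts and with Benjamini-Hochberg adjustment. Levels from here on are CPM on library sizes normalised by TMM (the trimmed mean of M values), and fold changes are log2, with their standard errors; the summed levels of marker lists remain plain CPM. In all 1529 members, 62 of 12787 genes rose (0.485% of those tested) and 182 fell (1.42%). The genes of the rule were not taken out of the test. The falls include 2 of the 5 marker genes that chose the members and 1 of the C1qtnf7 and Cobl list. The call rested on each library in part: 158 genes were called without sevoflurane replicate 1, 154 without sevoflurane replicate 2, 191 without sevoflurane replicate 3, and 85, 105 and 127 without oxygen replicates 1, 2 and 3. The median log2 change of all genes was 0.01.

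Genes that fell were long. The median span of a gene from start to end, introns included, was 219 kb among the genes that fell, 94.5 kb among those that rose and 29.2 kb among all tested. With the tested genes divided by span into 5 equal bins, the median log2 change was -0.12 in the bin of the longest genes and 0.09 in that of the shortest. After the fold changes were corrected for span, 54 genes rose and 84 fell, which raised the share of rises among the calls to 39.1%, against 25.4% without the correction. With the DESeq2 Wald test 6 genes rose and 281 fell, and 59 of the 62 genes that rose by edgeR received no adjusted p there.

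The fall with the smallest adjusted p among the largest falls in all members was that of Efna5, an ephrin ligand of axon guidance receptors. It stood at 148, 131 and 131 CPM in the sevoflurane libraries and 270, 251 and 313 CPM in the oxygen libraries, a log2 change of -1.02 ± 0.10 with an edgeR adjusted p of 0.0006. The groups did not come near each other, and the call held without any 1 library. Efna5 lies on chromosome 17, at 62604184 to 62881317 of mm10.

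Sav1, the scaffold of the Hippo kinases, was at 17.8, 14.8 and 17.6 CPM under sevoflurane and 33.7, 40.3 and 35.8 CPM under oxygen (log2 change -1.10 ± 0.17, edgeR adjusted p = 0.0053). Adcy8, a calcium-stimulated adenylyl cyclase, was at 225, 150 and 183 CPM under sevoflurane and 322, 357 and 339 CPM under oxygen (-0.86 ± 0.12, edgeR adjusted p = 0.0057). Both were lower in every sevoflurane library than in any oxygen library. The transcriptional repressor Bach2 completed the 4 of the 12 largest falls that were called without each library in turn; its fall is taken up with the Npsr1-led nuclei. The 12 largest falls, chosen among genes whose libraries did not overlap, ran from -0.80 to -1.14. Ovol2, a zinc finger transcription factor, marked the far end at 13.6, 14.1 and 25.1 CPM under sevoflurane and 39.3, 40.3 and 40.5 CPM under oxygen, and was not called without oxygen replicate 1 or 2. Ovol2 is among the leading genes of the Fermt1-led cluster, where its plain CPM overlapped at 42.2, 102 and 67.8 under sevoflurane and 112, 105 and 99.96 under oxygen.

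Among the 12 largest rises, which ran from 0.85 to 1.75, the zinc finger repressor gene Zbtb7c had the largest. Its levels were 16.8, 29.6 and 20.7 CPM under sevoflurane and 4.01, 6.30 and 8.86 CPM under oxygen (log2 change 1.75 ± 0.30, edgeR adjusted p = 0.0083). Klhl10, a ubiquitin ligase adaptor best known from the testis, was at 29.0, 34.4 and 32.2 CPM under sevoflurane and 9.22, 16.8 and 13.9 CPM under oxygen (1.25 ± 0.21, edgeR adjusted p = 0.0072). Arhgef33, a putative guanine nucleotide exchange factor, was at 18.5, 23.6 and 24.8 CPM under sevoflurane and 7.62, 8.41 and 8.86 CPM under oxygen (1.41 ± 0.22, edgeR adjusted p = 0.0062). The levels were low, but the sevoflurane libraries lay above all oxygen libraries for each of these genes.

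A further 5 of the 12 rises, Ccdc162, Iqck, Cfap44, Rgs22 and Kif6, are given with the markers of another cell type. Of the members, 12 held at least 4 of 12 genes of ependymal cells, the ciliated lining of the ventricles, with 4, 3 and 2 of these nuclei in the sevoflurane libraries and 1 in each oxygen library. The ependymal list summed to 210, 264 and 100 CPM in the members under sevoflurane and 32.8, 64.8 and 41.4 CPM under oxygen. Without those 12 nuclei, an exclusion chosen after seeing the data, the 5 genes were no longer called, and 27 genes rose and 136 fell in all. Their log2 changes were then 0.27 for Ccdc162, 1.05 for Iqck, 0.51 for Cfap44, 0.58 for Rgs22 and 0.60 for Kif6, against 1.496, 1.49, 1.28, 1.16 and 1.11 with those nuclei. In the Npsr1-led nuclei Iqck rose by 1.63 ± 0.46 (edgeR adjusted p = 0.038), and Kif6, at 1.26 ± 0.39, was not called (edgeR adjusted p = 0.064). None of the 12 nuclei was Npsr1-led. Other marker lists that did not overlap in the members were those of the choroid plexus, at 207, 240 and 160 CPM under sevoflurane and 381, 266 and 584 CPM under oxygen, and of CA1, at 262, 225 and 226 CPM under sevoflurane and 209, 187 and 189 CPM under oxygen. Much of the choroid plexus sum was Htr2c, which overlapped at 198, 223 and 151 CPM under sevoflurane and 253, 210 and 238 CPM under oxygen. The list of the C1qtnf7 and Cobl type, whose genes the rule reads, was at 334, 298 and 378 CPM under sevoflurane and 440.2, 440.3 and 462 CPM under oxygen. The part of these lists in the results was not tested.

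**Figure D3:**
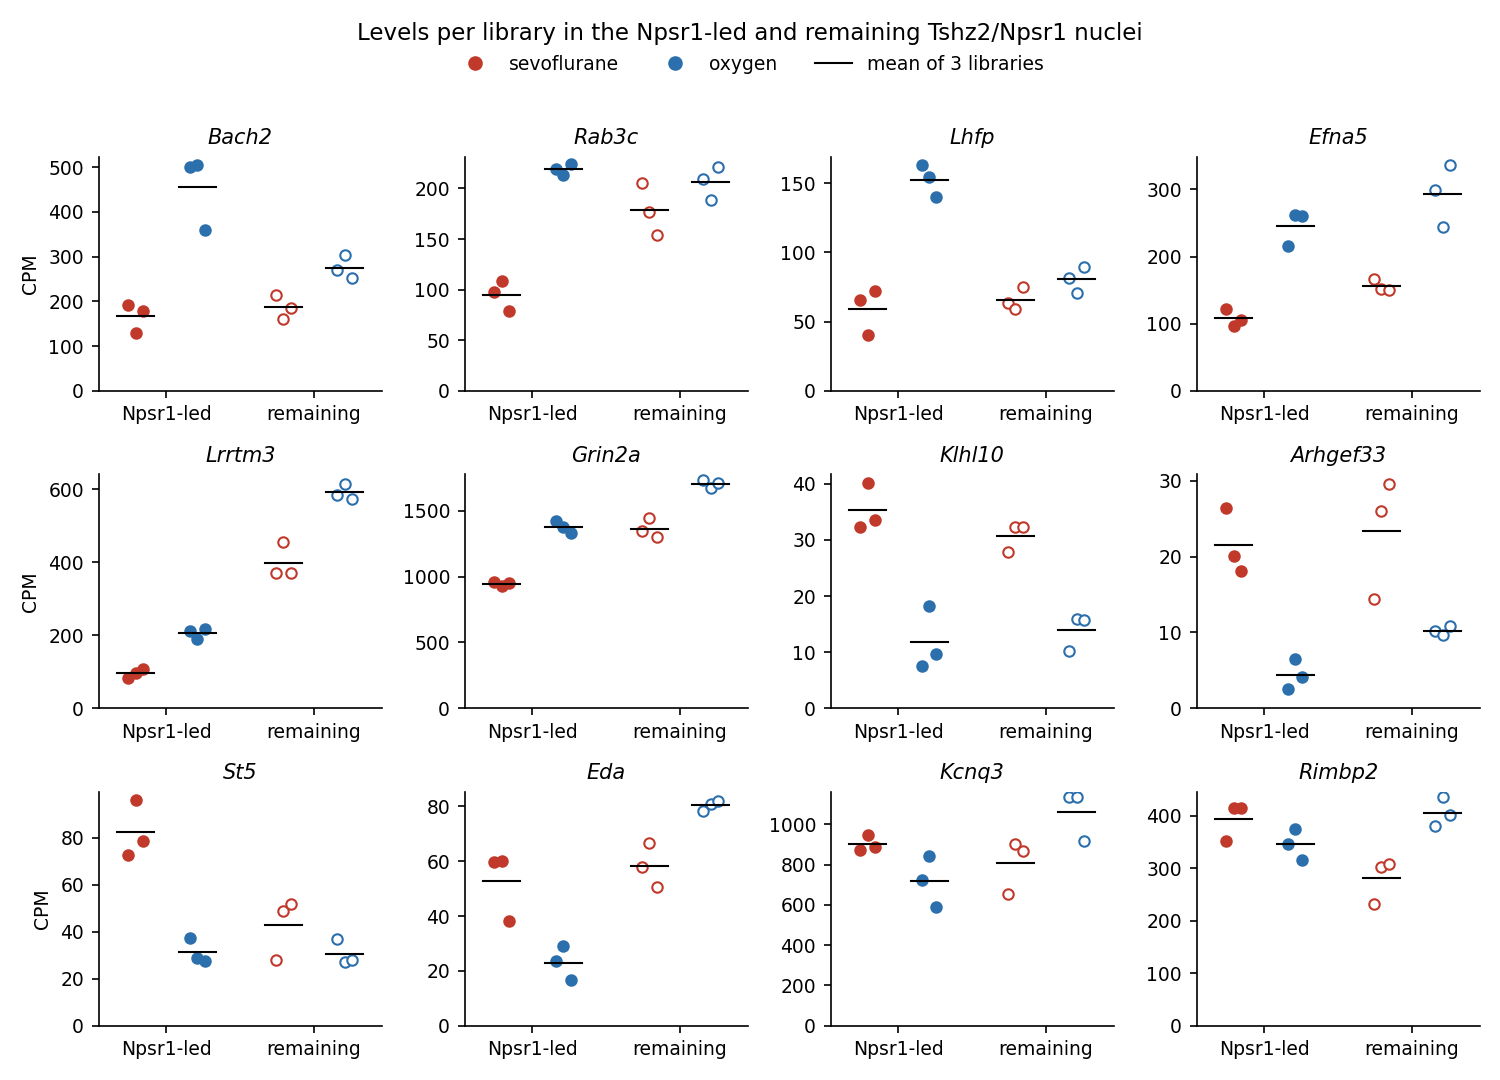
Levels of 12 genes in each library (CPM, normalised by TMM), sevoflurane left of oxygen, with filled circles for the Npsr1-led nuclei and open circles for the remaining nuclei. Bach2, Rab3c and Lhfp are lower under sevoflurane in the Npsr1-led nuclei, where Bach2 is at 191, 128 and 179 CPM against 501, 504 and 360 CPM, and lie closer together in the remaining ones.

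More genes passed the test in the 655 Npsr1-led nuclei than in all members together. Of 9455 genes tested 65 rose there (0.687%) and 286 fell (3.02%), and leaving out each library in turn gave 240 to 336 calls. Here too the falls include 2 of the 5 marker genes of the rule and 1 of the C1qtnf7 and Cobl list. After correction for span 66 genes rose and 150 fell, a share of rises of 30.6% against 18.5% without it; with DESeq2 12 rose and 235 fell, and 48 of the 65 genes that rose received no adjusted p. The genes that fell had a median span of 249 kb, against 35.0 kb for all tested. The ependymal list did not separate the groups here, at 64.7, 43.3 and 53.2 CPM under sevoflurane and 33.8, 55.9 and 49.5 CPM under oxygen. The astrocyte marker list did, at 332, 377 and 344 CPM under sevoflurane and 403, 440 and 382 CPM under oxygen, and so did the choroid plexus list, at 104, 80.4 and 113 CPM under sevoflurane and 206, 138 and 568 CPM under oxygen. In the choroid plexus list Htr2c overlapped, at 101, 74.2 and 106 CPM under sevoflurane and 86.3, 70.6 and 147 CPM under oxygen, while Ttr stood apart. Lists of other excitatory neurons also stood apart between the groups. That of CA1 summed to 250, 225 and 252 CPM under sevoflurane and 205, 186 and 197 CPM under oxygen, and that of CA3 to 859, 950 and 1035 CPM under sevoflurane and 812, 797 and 842 CPM under oxygen. Most of the CA3 sum was the single gene Grik4, at 772, 858 and 943 CPM under sevoflurane and 712, 724 and 765 CPM under oxygen. The layer 6 list was likewise higher under sevoflurane in all libraries and the dentate granule list lower. The list of the C1qtnf7 and Cobl type was at 340.3, 363 and 391 CPM under sevoflurane and 508, 544 and 492.5 CPM under oxygen. The layer 6b list, with 1 of its markers at 0 in all libraries, summed to 0, 2.06 and 4.59 CPM under sevoflurane and 4.66, 4.90 and 5.21 CPM under oxygen. The part of these 8 lists in the results was not tested.

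Bach2, a transcriptional repressor of the BTB and leucine zipper family on chromosome 4 (32238804 to 32586108 of mm10), fell the most by size among the named genes. It was at 191, 128 and 179 CPM in the sevoflurane libraries and 501, 504 and 360 CPM in the oxygen libraries (log2 change -1.42 ± 0.14, edgeR adjusted p = 1.1e-06). The highest sevoflurane library lay well below the lowest oxygen library.

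Rab3c, a small GTPase of secretory vesicles on chromosome 13 (110054187 to 110280996), was at 98.0, 108 and 78.8 CPM under sevoflurane and 219, 214 and 224 CPM under oxygen (-1.23 ± 0.13, edgeR adjusted p = 8.9e-07). The receptor phosphatase gene Ptprk was at 39.2, 60.1 and 51.7 CPM under sevoflurane and 146, 113 and 121 CPM under oxygen (-1.37 ± 0.17). The oxysterol-binding protein gene Osbpl3 was at 59.8, 74.2 and 73.4 CPM under sevoflurane and 174, 153 and 154 CPM under oxygen (-1.23 ± 0.15). In none of them did the groups overlap.

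Lhfp, which encodes a tetraspan membrane protein, was at 65.6, 40.1 and 72.5 CPM under sevoflurane and 163, 155 and 140 CPM under oxygen (-1.29 ± 0.16, edgeR adjusted p = 4.3e-06). Bcl2, the inhibitor of apoptosis, was at 27.4, 34.1 and 19.0 CPM under sevoflurane and 61.0, 48.3 and 60.5 CPM under oxygen (-1.14 ± 0.24, edgeR adjusted p = 0.0028). In the other excitatory nuclei Ptprk, Osbpl3, Lhfp and Bcl2 were also lower in all sevoflurane libraries, while Bach2 and Rab3c overlapped. Of the 12 largest falls, which ran from -1.10 to -1.42, 9 were called without each library in turn; the other three were Camk1g, Shc3 and Hsd17b12.

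Of the rises, St5, a regulator of Rab GTPases also called Dennd2b, had the smallest adjusted p. It was at 72.5, 96.2 and 78.8 CPM under sevoflurane and 37.3, 29.0 and 27.5 CPM under oxygen (1.36 ± 0.20, edgeR adjusted p = 4.4e-05), and it lies on chromosome 7 at 109523911 to 109703605. Glis1, a Kruppel-like zinc finger factor, was at 16.7, 24.1 and 27.2 CPM under sevoflurane and 2.49, 7.51 and 2.75 CPM under oxygen, the largest rise at 2.30 ± 0.43 (edgeR adjusted p = 0.001). Arhgef33, Zbtb7c and Klhl10 also rose here, by 2.25, 1.66 and 1.498. Of the 12 largest rises, from 1.25 to 2.30, 7 were called without each library in turn.

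In the 874 remaining nuclei far fewer genes passed the test, with 20 of 11638 risen (0.172%) and 15 fallen (0.129%). The count moved with each library: edgeR called 6 genes without sevoflurane replicate 1, 15 without sevoflurane replicate 2 and 59 without sevoflurane replicate 3. It called none without oxygen replicate 1 (1120 at an unadjusted p under 0.05), 18 without oxygen replicate 2 and 5 without oxygen replicate 3. Efna5 fell here too, at 166, 152 and 150 CPM under sevoflurane and 299, 244 and 337 CPM under oxygen in the remaining nuclei (-0.91, edgeR adjusted p = 0.0088). Cfap44 (1.45) and Rgs22 (1.49) rose here. In the Npsr1-led nuclei Rgs22 was at 24.5, 16.0 and 28.1 CPM under sevoflurane and 11.2, 20.4 and 15.1 CPM under oxygen, where the groups overlapped. The 12 nuclei with ependymal genes were all among the remaining nuclei. So were all 141 members marked as doublets, since 0 of the Npsr1-led nuclei were marked. The mixture of clusters also varied between the libraries: the Fermt1-led cluster held 11.6%, 4.05% and 10.1% of the members under sevoflurane, against 13.1%, 11.9% and 18.5% under oxygen, with no overlap. These shares were given no test, and no difference in composition is read from them. The part of the ependymal nuclei, of the doublets and of the mixture in these calls was not tested.

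Whether the Npsr1-led nuclei responded differently from the remaining nuclei was tested directly, as the difference of both log2 values within each library, with limma. Members marked as doublets lay on the remaining side alone, and their part in this comparison was not tested. Of 9403 genes, 9 differed (0.0957%), 4 with a higher and 5 with a lower response in the Npsr1-led nuclei; 709 had an unadjusted p under 0.05. Rab3c was at 205, 177 and 154 CPM under sevoflurane and 209, 188 and 222 CPM under oxygen in the remaining nuclei, where the groups overlapped; its response was lower in the Npsr1-led nuclei by -0.99 ± 0.15 (limma adjusted p = 0.0051). For Bach2 the remaining nuclei were at 215, 161 and 185 CPM under sevoflurane and 270, 304 and 251 CPM under oxygen, and the responses differed by -0.89 ± 0.14 (limma adjusted p = 0.0058). Those of Lhfp differed by -1.09 ± 0.20 (limma adjusted p = 0.0295), and those of Mlip, a lamin-interacting protein gene, by -0.76. The remaining gene with a lower response carried only a clone name.

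Eda went in opposite directions. This gene of a ligand of the tumour necrosis factor family lies on the X chromosome (99975606 to 100400762). In the Npsr1-led nuclei it was at 59.8, 60.1 and 38.1 CPM under sevoflurane and 23.6, 29.0 and 16.5 CPM under oxygen, and the groups did not overlap. In the remaining nuclei it was at 57.8, 66.6 and 50.7 CPM under sevoflurane and 78.3, 81.0 and 82.1 CPM under oxygen, where the fall alone was not called (edgeR adjusted p = 0.17). The difference of the responses was 1.57 ± 0.25 (limma adjusted p = 0.0058). The potassium channel gene Kcnq3 differed by 0.74, Rimbp2 of the presynaptic active zone by 0.71 and the AMPA receptor partner Gsg1l by 0.88. Without oxygen replicate 1 limma called none (654 at an unadjusted p under 0.05). It called 5 genes without sevoflurane replicate 1 or oxygen replicate 2, 17 without oxygen replicate 3 and 24 without sevoflurane replicate 3.

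**Figure D4:**
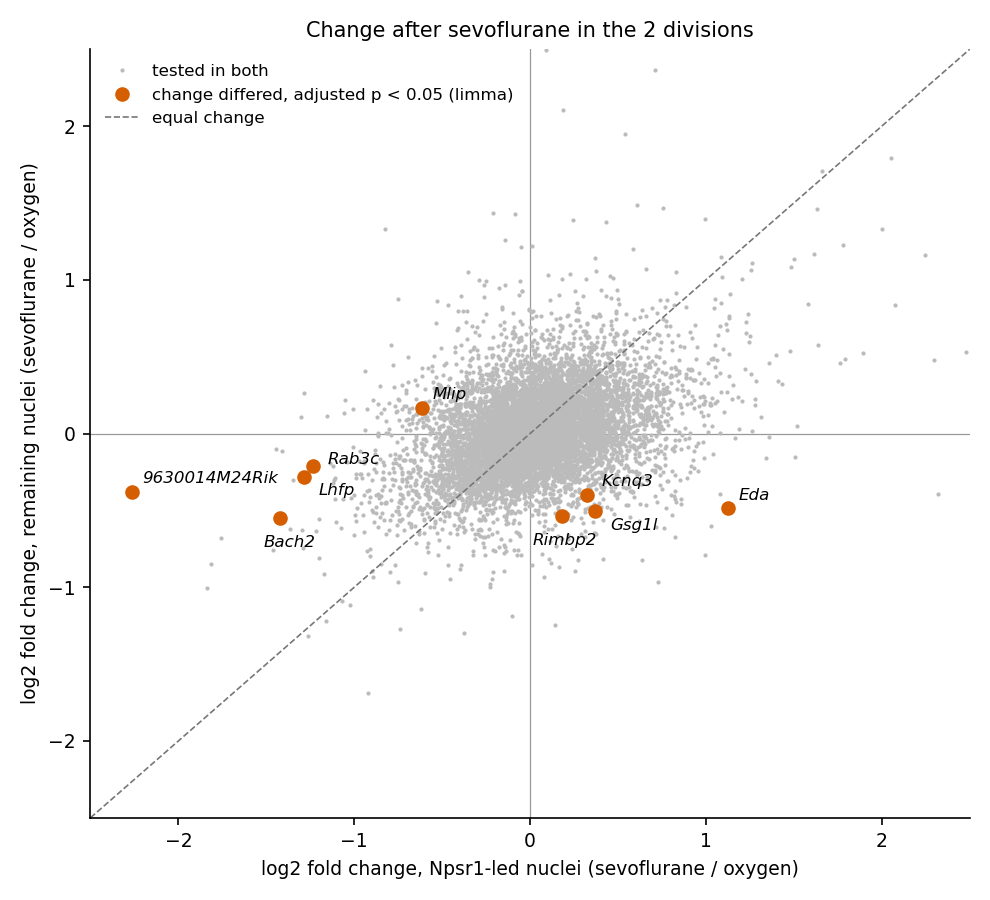
Log2 change, sevoflurane over oxygen, of 9403 genes in the Npsr1-led nuclei (horizontal axis) and in the remaining nuclei (vertical axis), with 3 genes outside the range shown. The 9 genes whose response differed are labelled: Rab3c, Bach2 and Lhfp lie far to the left and above the line of equal change, and Eda lies to the right and below 0. Bach2 was lower under sevoflurane in the remaining nuclei too, where its libraries did not overlap.

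The targets of volatile anaesthetics and the synaptic genes are given next in the Npsr1-led nuclei, against a background of 0.687% of genes risen and 3.02% fallen and a median log2 change of 0.02. The lists were drawn up with results of these data known. Of 12 GABA-A receptor subunits tested, none rose and 2 fell, Gabrb2 among them; all 12 had a log2 change below 0, with a median of -0.22. Gabrb2, the beta subunit most abundant in adult cortex, was at 562, 491 and 520 CPM under sevoflurane and 649, 699 and 701 CPM under oxygen (-0.38 ± 0.09, edgeR adjusted p = 0.018). The groups did not overlap, but Gabrb2 was called in only 2 of the 6 fits that left out a library. Of 9 tandem pore potassium and HCN channels, only Kcnk2, the TREK-1 channel that volatile anaesthetics open, passed the test. It fell, at 167, 245 and 254 CPM under sevoflurane and 316, 349 and 327 CPM under oxygen (-0.59 ± 0.13, edgeR adjusted p = 0.0045), and the list's median was -0.38. In the other excitatory nuclei Kcnk2 overlapped between the groups, while Gabrb2 was lower in all sevoflurane libraries there too.

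Of 16 ionotropic glutamate receptor genes none rose and 3 fell, with a median of -0.16. Grin2a, the NMDA receptor subunit of mature synapses, was at 961, 928 and 953 CPM under sevoflurane and 1419, 1374 and 1335 CPM under oxygen (-0.54 ± 0.09, edgeR adjusted p = 0.00014), the sevoflurane libraries lying within a narrow band well below the others. It stood apart in the other excitatory nuclei too, at 2695, 2845 and 2673 CPM under sevoflurane and 3005, 3299 and 3089 CPM under oxygen, in plain CPM. The AMPA receptor subunit Gria4 and the kainate receptor subunit Grik2 fell by 0.38 and 0.37 in the Npsr1-led nuclei. In the other excitatory nuclei Gria4 was also lower in all sevoflurane libraries, while Grik2 overlapped. Of 7 metabotropic receptors 3 fell, namely Grm5 (-0.44), Grm7 (-0.40) and Grm3 (-0.45), and the median was -0.29. Of 10 auxiliary subunits of AMPA receptors Shisa9 and Cacng3 fell, by 0.58 and 0.80, with a median of -0.16. No tested gene of these 3 lists was called as risen. The log2 change was below 0 for 10 of the 16 ionotropic receptor genes, 4 of the 7 metabotropic receptors and 7 of the 10 auxiliary subunits.

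Of 24 voltage-gated potassium channels 6 fell and none was called as risen, with a median of -0.10 and 15 of the 24 below 0. Kcnq5, a subunit of the M current, was at 1968, 1836 and 2106 CPM under sevoflurane and 2960, 3238 and 2698 CPM under oxygen (-0.59 ± 0.09, edgeR adjusted p = 5.6e-05). It did not overlap in the other excitatory nuclei either, at 1354, 1338 and 1293 CPM under sevoflurane and 1517, 1523 and 1460 CPM under oxygen, in plain CPM. Among 21 sodium and calcium channel genes 4 fell, all of them auxiliary subunits of calcium channels: Cacnb4 by 0.54, Cacna2d3 and Cacnb2 by 0.48 each and Cacna2d1 by 0.45. The 2 that rose, Scn4b and Cacna1g, were named after their values were seen; Scn4b rose by 2.32 and Cacna1g by 0.60. Of the 21 genes, 13 had a log2 change below 0. Of 26 genes of vesicle release none was called as risen and 5 fell, with a median of -0.14 and 18 of the 26 below 0. They included the calcium sensor Syt1 (-0.36), the active zone scaffolds Rims1 (-0.38) and Rims2 (-0.35) and the priming factor Unc13a (-0.63).

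Cell adhesion and axon guidance formed the longest list. Of 48 genes tested in the Npsr1-led nuclei none rose and 16 fell, with a median of -0.28 and 40 of the 48 below 0. Besides Efna5, which was at 121, 96.2 and 106 CPM under sevoflurane and 215, 262 and 261 CPM under oxygen (-1.17 ± 0.13), they included Lrrtm3, a leucine-rich repeat protein of excitatory synapses. Lrrtm3 was at 83.3, 96.2 and 108 CPM under sevoflurane and 211, 191 and 217 CPM under oxygen (-1.10 ± 0.13, edgeR adjusted p = 2.5e-06). The netrin receptor gene Unc5c was at 123, 100.2 and 142 CPM under sevoflurane and 291, 238 and 220 CPM under oxygen (-0.999 ± 0.14), and the cadherin gene Cdh20 at 391, 297 and 424 CPM under sevoflurane and 556, 678 and 672 CPM under oxygen (-0.76 ± 0.11). In none of these did the groups overlap in the Npsr1-led nuclei. Lrrtm3 stood apart in the other excitatory nuclei too, at 133, 123 and 147 CPM under sevoflurane and 215, 223 and 216 CPM under oxygen, in plain CPM. So did Efna5, at 59.8, 65.2 and 64.2 CPM under sevoflurane and 97.8, 81.8 and 96.5 CPM under oxygen. In all members 6 of 54 fell and none rose, against 1.42% of all genes fallen there, and in the remaining nuclei 3 of 54 fell, against 0.129%. Many of these genes have long spans, as the genes that fell had in general.

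Other lists held few calls. Of 20 activity-induced genes tested in the Npsr1-led nuclei only Btg2, an antiproliferative gene, passed the test. It rose, at 22.5, 22.0 and 12.7 CPM under sevoflurane and 2.49, 6.44 and 6.87 CPM under oxygen (1.78 ± 0.44, edgeR adjusted p = 0.015). The list's median was -0.04, and in all members 1 of 30, Tiparp, rose. Of 8 glucocorticoid-responsive genes Fkbp5, a co-chaperone of the glucocorticoid receptor, rose to 98.9, 140 and 154 CPM under sevoflurane, against 85.8, 70.8 and 74.2 CPM under oxygen (0.76 ± 0.17, edgeR adjusted p = 0.005), and Zbtb16 fell by 0.44. Of 16 clock genes Npas2, a partner of Bmal1, fell by 0.74.

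No gene passed the test in the Npsr1-led nuclei among 4 neuropeptides, 13 cholesterol synthesis genes, 13 polyamine and methylthioadenosine genes, 14 chaperones or 21 nuclear genes of the respiratory chain. At an unadjusted p under 0.05 these lists held 1, 1, 0, 2 and 3 genes, against 1346 of all 9455 genes tested. The list of 26 neuromodulator and peptide receptors includes Npsr1. Its fall passed the edgeR threshold but is not read as a result, since Npsr1 is a gene of the rule. No other gene of the list was called by edgeR, and 7 of the 26, Npsr1 included, had an unadjusted p under 0.05. A list of 30 genes reported for other hippocampal cells of these same libraries had 6 risen and 4 fallen among 20 tested; it was chosen on these samples and is not independent evidence of their direction.

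**Figure D5:**
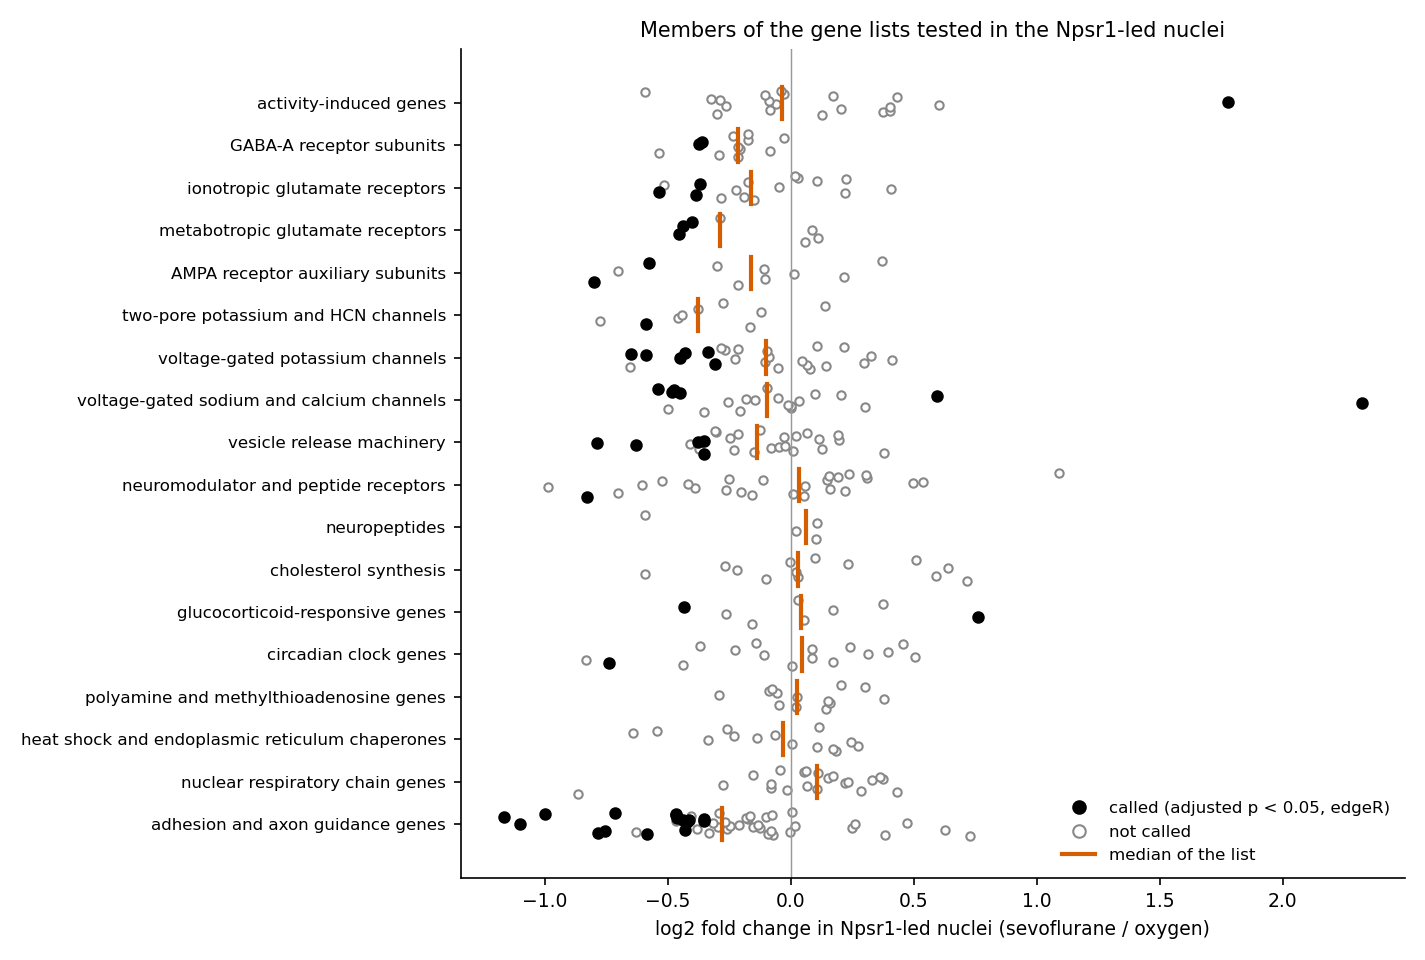
Log2 change, sevoflurane over oxygen, of each tested gene of 18 lists in the Npsr1-led nuclei, with called genes filled and the median of each list in orange. Called genes lie mainly below 0 in the lists of receptors, channels, vesicle release and adhesion, where 16 of 48 adhesion genes fell. The filled point among the neuromodulator and peptide receptors is Npsr1, a gene of the rule.

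Few differences of response between the members and other excitatory nuclei passed the test. Between the members and the 1710 nuclei of the C1qtnf7 and Cobl type, the response of 1 of 12666 genes differed (0.0079%; 745 had an unadjusted p under 0.05): that of Rspo2, an activator of Wnt signalling, by -0.77. Against 576 nuclei with Foxp2 and Tle4, 2 of 9751 genes differed (0.0205%; 485 at an unadjusted p under 0.05), namely Kcnip1 and the axonemal dynein Dnah12. Dnah12 is also 1 of the 12 ependymal genes, at 32.8, 57.1 and 19.3 CPM in the members under sevoflurane and 3.09, 5.46 and 0.370 CPM under oxygen, in plain CPM, and its part in that result was not tested. Both counts are small enough to turn on single libraries: leaving out 1 library at a time gave 0 to 4 calls in the first comparison and 0 to 2 in the second. Against all 27298 other excitatory nuclei 20 of 12784 differed (0.156%), 17 with a higher and 3 with a lower response in the members. The 3 were Bach2 (-0.74), Shisa4 (-0.90) and Efr3a (-0.45). Npas3, Cd109, St5 and Armc4 were among the 17, and without the nuclei that held ependymal genes 2 genes were called in all. With limma on 5 libraries, no gene was called without sevoflurane replicate 2 (806 at an unadjusted p under 0.05), 1 without oxygen replicate 1, 5 without oxygen replicate 3 and 8 without sevoflurane replicate 1.

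The Npsr1-led nuclei stood further apart. The response of 66 of 9455 genes differed from that of the other excitatory nuclei (0.698%), 27 with a higher and 39 with a lower response, and 26 to 58 were called with each library left out, the fewest without oxygen replicates 1 (26), 2 (37) and 3 (34) and sevoflurane replicate 2 (34). Bach2 differed by -1.27 ± 0.13 (limma adjusted p = 1.05e-05). In plain CPM it was at 160, 112 and 125 in the other excitatory nuclei under sevoflurane and 149, 135 and 135 under oxygen, where the groups overlapped. St5 differed by 1.34 ± 0.17: the other excitatory nuclei were at 71.5, 87.7 and 92.0 CPM under sevoflurane and 78.6, 77.6 and 81.1 CPM under oxygen in plain CPM, and the groups overlapped there.

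Kcnab1, an auxiliary subunit of voltage-gated potassium channels, fell in the Npsr1-led nuclei to 481, 425 and 442 CPM under sevoflurane, against 911, 889 and 900 CPM under oxygen (-0.996 ± 0.09, edgeR adjusted p = 1.3e-07). In the other excitatory nuclei it was at 394, 417 and 418 CPM under sevoflurane and 458, 487 and 497 CPM under oxygen, in plain CPM, and the responses differed by -0.69 ± 0.10 (limma adjusted p = 0.0005). Tafa1, a secreted protein of neurons, differed by -0.64 and Rab3c by -0.92. Against the C1qtnf7 and Cobl type 22 of 9449 genes differed (0.233%), 6 with a higher and 16 with a lower response, with Bach2, Rab3c, St5 and Eda again among them. Without oxygen replicates 1, 2 and 3 this count was 7, 4 and 8, and without sevoflurane replicates 1, 2 and 3 it was 6, 49 and 41.

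Efna5, Klhl10 and Sav1 stood apart in the same direction in the C1qtnf7 and Cobl type. There Efna5 was at 83.0, 74.0 and 92.3 CPM under sevoflurane and 154, 152 and 149 CPM under oxygen, in plain CPM. Klhl10 was at 25.0, 19.6 and 26.2 CPM there under sevoflurane and 13.2, 10.2 and 15.7 CPM under oxygen. Sav1 was at 13.5, 10.7 and 13.9 CPM under sevoflurane and 26.9, 39.3 and 31.8 CPM under oxygen. The groups did not overlap for any of the 3, and none of them was called for a different response. In the nuclei with Foxp2 and Tle4, Efna5 was at 112, 272 and 81.1 CPM under sevoflurane and 291, 220.3 and 102 CPM under oxygen, and Klhl10 also overlapped between the groups. Sav1 was at 11.7, 22.7 and 24.3 CPM there under sevoflurane and 29.7, 33.8 and 29.1 CPM under oxygen, with no overlap.

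When the members alone were clustered, after centring each library, 11 groups of nuclei were found, 3 of them mainly within the Npsr1-led cluster. The shares of 2 of the 11, one led by Zfp804b and Fermt1 and the other by Cdh18 and Sdk2, did not overlap between the treatments and were lower under sevoflurane. The exact permutation p was 0.1 for each, the smallest possible, and 0.55 after adjustment, so that neither passed the threshold and no difference in composition is read from them.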

How the data were processed

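The deposited files are raw counts, whole numbers of UMIs per gene and barcode written by Cell Ranger 7.1.0 per the file headers; per the submitters' processing notes, reads went through fastp and Cell Ranger with mm10. The authors had already selected the barcodes. Whether intronic reads were counted, and with which annotation, is not given in the sources used here. Of 32285 genes, 32158 matched GENCODE M21, which gave spans and positions on mm10. Sav1, Arhgef33 and Lrrtm3 overlap genes on the opposite strand (Atl1, Sos1 and Ctnna3).

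The members and gene lists were chosen with earlier results of these data known. Named genes were the 12 largest rises and 12 largest falls among called genes whose libraries did not overlap and whose mean reached 20 CPM in either group, up to 4 called genes per list by smallest p, up to 4 per direction for each difference of response, the 20 genes with the largest ratio to other excitatory nuclei and the genes of the rule. Genes with only a clone or predicted name were counted and not named. A few genes that the rule selects are not reported here.

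Counts were summed per library and tested with edgeR 4.0.16 in R 4.3.3 (quasi-likelihood, robust, TMM, filterByExpr, treatment as the only term, adjusted p below 0.05). Differences of response were tested with limma 3.58.1 on within-library differences of log2 CPM (prior count 2). Single values were compared by exact permutation over all 20 arrangements of 6 libraries. Clusters came from 3000 variable genes, 40 principal components, 20 neighbours and the Leiden method of igraph 0.11.9. Doublets were scored per library with Scrublet in scanpy 1.11.5, at an expected 0.8% per 1000 barcodes. Alternatives were DESeq2 1.42.0, a correction for span, other filters and memberships, a replicate block and each library left out. The edgeR and limma tests were run on simulated counts with known changes.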

Additional observations from a re-analysis of the deposited data

Results flagged for a closer look

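The comparisons in this part set the response of 1 kind of nucleus against another within the same libraries, with limma. The response of 9 genes differed between the Npsr1-led nuclei and the remaining nuclei, that of 66 genes between the Npsr1-led nuclei and the other excitatory nuclei, and that of 22 genes between the Npsr1-led nuclei and the C1qtnf7 and Cobl type. For all members together the response of 20 genes differed from that of the other excitatory nuclei, 1 from that of the C1qtnf7 and Cobl type and 2 from that of the nuclei with Foxp2 and Tle4. They are listed because a test of the difference itself passed the threshold. Of 60 genes named from the Npsr1-led nuclei, 3 differed from the remaining nuclei at the threshold and 25 at an unadjusted p under 0.05. Among all 9403 genes tested these counts were 9 and 709. The 60 were chosen by their results on 1 side of this comparison, so an excess of small p was partly fixed in advance. No result is read from it.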

How the results depend on the processing

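Among all members the count of 244 called genes became 709 with no filter on low counts, 138 after the span correction and 35 in the remaining nuclei alone (membership chosen after seeing the data); leaving out a library gave 85 to 191. The Npsr1-led count of 351 became 216 after the span correction, and 240 to 336 with a library left out; the remaining nuclei gave 0 to 59. No named gene changed direction with a library left out, with DESeq2, with the span correction or with a replicate block. The members' difference in share of -1.13 percentage points ranged from -1.69 to -0.188 with a library left out, and that of the median UMIs from -671 to -186.

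The replicate numbers were not treated as pairs in the main tests. Same-numbered deviations in the members correlated at -0.09 to 0.10, but with 3 libraries per group these values cannot show whether the libraries were paired. With a replicate block, 222 genes were called in the members, 290 in the Npsr1-led and 83 in the remaining nuclei. The counts of differing responses then became 16 against the C1qtnf7 and Cobl type, 0 against the Foxp2 and Tle4 type (507 at an unadjusted p under 0.05) and 77 against other excitatory nuclei for the members; for the Npsr1-led nuclei they became 42 against the remaining nuclei, 53 against the C1qtnf7 and Cobl type and 48 against the other excitatory nuclei.

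Without doublets the members' counts against the C1qtnf7 and Cobl, the Foxp2 and Tle4 and the other excitatory nuclei were 2, 0 and 0. With at least 10 counts in both sets they were 0, 7 and 34. Without nuclei with ependymal genes, an exclusion chosen after seeing the data, they were 0 against the C1qtnf7 and Cobl type and 2 against other excitatory nuclei. A prior count of 0.5 gave 0 against the Foxp2 and Tle4 type. Leaving out a library gave 0 to 4, 0 to 2 and 0 to 28 for the members, and for the Npsr1-led nuclei 0 to 24 against the remaining, 26 to 58 against other excitatory and 4 to 49 against C1qtnf7 and Cobl nuclei. The number of subgroups of members whose shares did not overlap was 2, and became 1 at resolution 0.6, 0 without doublets and 2 to 3 with a library left out. The causes of these changes were not tested. Sevoflurane replicate 2, with 148 members, limits what low genes can show.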

Other observations

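Among the 66 genes whose response in the Npsr1-led nuclei differed from that of the other excitatory nuclei, the calcium channel gene Trpc6 differed by 1.44 ± 0.23, the cilium gene Ttc23 by 2.17 ± 0.37 and Lrrk2, a kinase of vesicle traffic, by -1.02 ± 0.16. Lrrk2 was chosen after its values were seen.

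Among the leading genes, Tox also fell in the Npsr1-led nuclei, at 489, 425 and 451 CPM under sevoflurane and 896, 710 and 844 CPM under oxygen (log2 change -0.84 ± 0.10, edgeR adjusted p = 2.5e-06). Bmper was at 172, 126 and 151 CPM under sevoflurane and 225, 196 and 228 CPM under oxygen (-0.50 ± 0.13, edgeR adjusted p = 0.019). Both led the members over all 6 libraries, and neither was part of the rule. Mllt3, a transcription elongation factor subunit, was at 192, 194 and 181 CPM under sevoflurane and 327, 341 and 273 CPM under oxygen (-0.74 ± 0.12, edgeR adjusted p = 9.2e-05).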
